A study of Mus musculus with 7 samples.

Results

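The nuclear-encoded genes of the mitochondrial respiratory chain and ATP synthase were described across the cell classes of the mouse stomach lining. Members were taken by name: features outside the mitochondrial chromosome (chrM) whose symbol starts with Nduf (but not Ndufaf), Uqcr, Cox4i, Cox5, Cox6, Cox7, Cox8 or Atp5, and Sdha to Sdhd. This gave 83 of 18907 features, of which 35 belong to complex I, 4 to complex II, 8 to complex III, 19 to complex IV and 17 to ATP synthase (complex V). Ndufa4 and Ndufa4l2 were counted with complex IV, where their proteins are known to sit. Atp5s, Atp5sl and Cox7a2l are members by name, although their products are known as factors of complex assembly and not as standing subunits.

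The respiratory chain passes electrons from NADH (complex I) and succinate (complex II) through complex III to oxygen at complex IV, and ATP synthase uses the resulting proton gradient to make ATP. Its subunits come from both the nuclear and the mitochondrial genome, and chrM holds a small set of core subunits of complexes I, III, IV and V, while complex II is wholly nuclear. Parietal cells of the stomach pump acid with the H+/K+ ATPase, which consumes ATP, and are known for their dense mitochondria.

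Single cells came from the gastric epithelium of wild-type C57BL/6 mice, with no treatment named; ages are not given in the labels. Glands of the corpus (4 plates) or the pylorus (3 plates) were dissociated, and living cells were sorted 1 per well into plates of 384 wells for SORT-seq, a plate method that counts the 3′ ends of transcripts by unique molecular identifiers (UMIs). Wells with 1000 UMIs or more were taken as cells: 2235 of 2688, with 1252 in corpus and 983 in pylorus plates. The labels do not tie plates to animals, so the spread behind the p-values may be technical. Between regions it is the spread between plates. In fits with plate as a block, differences common to a plate are taken out, and the spread left between class sums is used. The 384 well barcodes are common to all plates by design, and 0 pairs of kept cells had identical profiles. Corpus replicate 1 and pylorus replicate 1 stood apart, with spike-in shares of 4.27% and 6.55% against 0.256% to 0.426% in the others and median depths of 6899 and 8240 UMIs per kept cell against 19648 to 25545. Because each transcript gives 1 tag, values are CPM, UMIs scaled to a fixed library total, and are not scaled by length.

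Cells were grouped into classes by marker genes, with the members, the chrM features and other mitochondrial lists left out of the clustering. The parietal-like class held 139 cells, and 130 of them lay in the 4 plates with at least 10 such cells, namely 56 cells in corpus replicate 3, 42 in corpus replicate 4, 12 in pylorus replicate 2 and 20 in pylorus replicate 3. Atp4a and Atp4b, the subunits of the acid pump, were among the markers that gave this class its label. They took 0.397% and 0.385% (Atp4a) and 1.03% and 0.938% (Atp4b) of its UMIs in the corpus plates. In the pylorus plates the values were 0.437% and 0.457%, and 1.02% and 0.996%. In any other named class and plate Atp4b took at most 0.122% and Atp4a at most 0.145%, both in chief-like cells (corpus replicates 3 and 2). The other classes in the fits were neck or gland mucous-like (461 cells), pit-like (389), endocrine-like (282), chief-like (278), proliferating-like (196) and immune-like cells (115, led by mast cell genes). Another 325 cells stayed unnamed, and 50 tuft-like cells were too few for the fits. Chief-like, pit-like and neck or gland mucous-like cells each came from a pair of clusters that divided the plates: corpus replicates 1 and 2 and pylorus replicate 1 lay mostly in one cluster of the pair, and the other 4 plates in the other. The part of this split in the class results was not tested.

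Upstream sequence of a few members is shown because the results turn on them: Atp5g3 rose most between regions in parietal-like cells, Cox7a1 passed the filter on low counts only through those cells, Cox6a1 was the member of complex IV with the most UMIs, and Ndufa1 was highest in chief-like cells in most plates. The lines give the 250 bases before the start site, 5′ to 3′ on the gene's strand, from RefSeq's GRCm38.p6 table. The deposited files use another build (mm9), so no coordinate was carried between them. Capitals mark matches to the motifs named after the sequences.
Atp5g3, chr2:73911327-73911576 (minus strand): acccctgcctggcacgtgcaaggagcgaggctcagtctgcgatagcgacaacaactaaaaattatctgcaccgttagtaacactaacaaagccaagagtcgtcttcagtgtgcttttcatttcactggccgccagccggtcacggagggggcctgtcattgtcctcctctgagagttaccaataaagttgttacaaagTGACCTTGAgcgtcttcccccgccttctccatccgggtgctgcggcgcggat
Cox6a1, chr5:115348959-115349208 (minus strand): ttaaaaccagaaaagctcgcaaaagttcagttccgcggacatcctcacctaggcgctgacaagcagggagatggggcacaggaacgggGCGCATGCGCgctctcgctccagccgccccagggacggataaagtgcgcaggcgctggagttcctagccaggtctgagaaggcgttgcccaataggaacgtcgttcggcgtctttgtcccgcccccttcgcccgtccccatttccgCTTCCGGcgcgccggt
Cox7a1, chr7:30183921-30184170 (plus strand): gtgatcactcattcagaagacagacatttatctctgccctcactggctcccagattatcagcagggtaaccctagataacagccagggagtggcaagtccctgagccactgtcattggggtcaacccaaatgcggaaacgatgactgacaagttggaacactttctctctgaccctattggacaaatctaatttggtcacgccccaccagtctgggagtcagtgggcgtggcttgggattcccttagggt
Ndufa1, chrX:37191239-37191488 (minus strand): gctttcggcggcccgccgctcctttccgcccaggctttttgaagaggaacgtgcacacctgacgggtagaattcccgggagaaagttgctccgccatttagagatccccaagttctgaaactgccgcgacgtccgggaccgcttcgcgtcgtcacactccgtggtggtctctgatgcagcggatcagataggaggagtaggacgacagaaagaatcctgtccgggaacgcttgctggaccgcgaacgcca

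The windows of 68 of the 83 members (74 windows of 300 bases, 250 before and 50 after the start) were searched on both strands for sequences bound by factors known to act on mitochondrial genes. The motif of the estrogen-related receptors, TCAAGGTCA, lay in the windows of 2 members, Atp5g3 and Sdhd. That was 2.70% of member windows against 0.423% of all 32851 windows. It began 52 bases before the start of Atp5g3, as its reverse complement, and is the capital run in that line. The NRF1 motif GCGCATGC lay in 13.5% of member windows against 2.71% of all, the ETS motif CCGGAAG in 21.6% against 8.86%, and the YY1 motif AAGATGGC in 16.2% against 2.75%. Over the 21263 windows of protein-coding genes alone, these motifs lay in 3.52% (NRF1), 11.6% (ETS) and 3.05% (YY1), and TCAAGGTCA in 0.334%. The Cox6a1 line holds GCGCATGC on both strands in overlapping letters, and the reverse complement of CCGGAAG close to the start. In the Cox7a1 and Ndufa1 windows none of these letters was found. A match describes the letters of a window and was not tested as a binding site.

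Parietal-like cells held a larger share of member transcripts than any other named class in each plate that had both. Members took 3.39% and 3.24% of all UMIs of parietal-like cells in corpus replicates 3 and 4, and 5.35% and 5.08% in pylorus replicates 2 and 3. The next classes were proliferating-like cells at 2.06% ± 0.35 (SD, n = 6 plates) and pit-like cells at 1.90% ± 0.36 (n = 7). Within plates the former were higher in 5 of 6, by 0.128 ± 0.096 percentage points (SD; exact permutation test, two-sided p = 0.0625, adjusted over 6 pairs of neighbouring classes 0.125). Endocrine-like cells at 1.47% ± 0.18 (n = 7) and neck or gland mucous-like cells at 1.39% ± 0.20 (n = 7) overlapped, with a difference within plates of 0.071 ± 0.190 percentage points (higher in 6 of 7; exact p = 0.359). Chief-like cells at 1.06% ± 0.08 (n = 6) and immune-like cells at 0.893% ± 0.063 (n = 4) were the lowest, and tuft-like cells gave 1.72% and 1.59% in 2 plates. Within a plate the parietal-like share was 1.72 to 5.82 times that of another class. A share of all UMIs also moves with other abundant transcripts. The digestive pre-enzyme Pgc alone took 11.8% to 18.6% of the UMIs of chief-like cells. In neck or gland mucous-like cells, whose member share was higher, it took 13.5% to 17.5%. Its part in the shares was not tested.

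**Figure D1:**
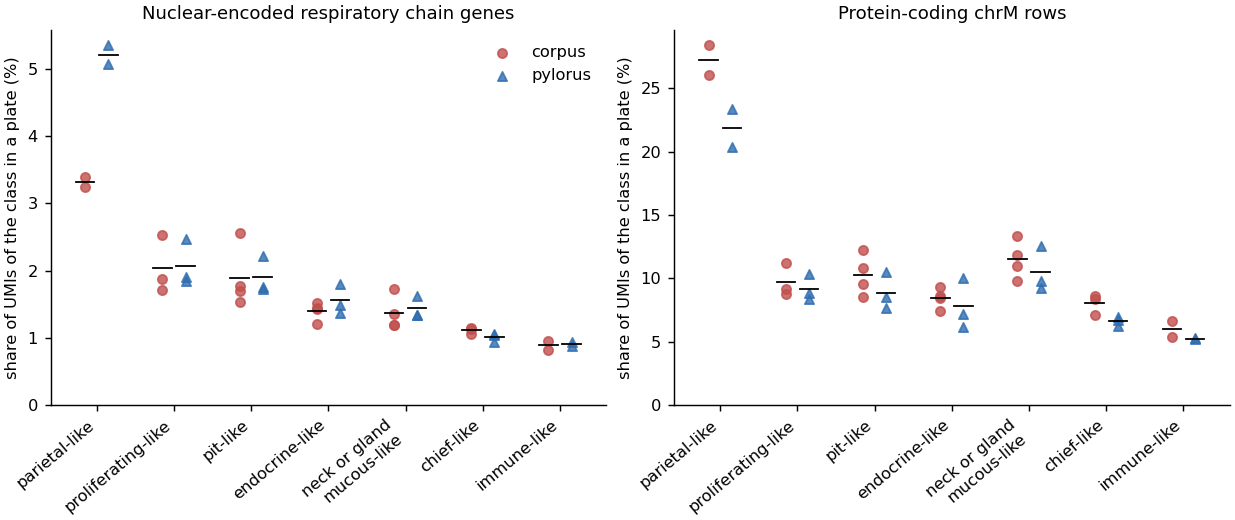
Share of UMIs (%) from the 83 nuclear members (left) and from the 13 protein-coding chrM features (right), by class. Each point is 1 plate with at least 10 cells of the class (circles corpus, triangles pylorus), and lines are means. Parietal-like cells are highest in both panels, and their pylorus plates are above the corpus plates on the left and below them on the right.

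All 5 complexes had their highest share in parietal-like cells. Complex I took 0.907% and 0.875% of parietal-like UMIs in the corpus plates and 1.37% and 1.36% in the pylorus plates. Complex IV took 0.911% and 0.871%, then 1.37% and 1.20%. ATP synthase took the largest share, 0.998% and 0.960%, then 1.73% and 1.69%. The next class, proliferating-like cells, reached means of 0.514% for complex I, 0.4926% for complex IV and 0.739% for ATP synthase. Complex III took 0.438% and 0.419%, then 0.698% and 0.622%, and complex II 0.137% and 0.112%, then 0.189% and 0.205%.

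Gene by gene, the 77 members that passed the filter on low counts were higher in parietal-like cells than in the mean of the other 6 classes, and 0 were lower. Sums per class and plate were compared by limma on log2(CPM + 2) with plate as a block and Benjamini-Hochberg adjustment over 11136 genes, and a gene passed at an adjusted p under 0.05. The CPM printed for the other classes are plain means of their class means. The log2 differences are between means of logs with plate as a block, so they need not equal the ratio of the printed CPM. Of all genes tested, 17.2% were higher and 18.4% lower in this comparison. The median difference of the members was 2.00 on the log2 scale, against -0.09 for all genes, and the largest adjusted p was 0.000186 (Atp5s). In all 4 plates 76 of the 77 were highest in parietal-like cells, while Ndufa1 was highest there in 1 plate, corpus replicate 3. Without the parietal-like sums 76 members would have passed the filter. Cox7a1 entered through these cells, and its count here follows from that; over the 76 the median was 1.99. The 6 members below the filter were isoforms with almost no counts in this tissue: Cox6b2 had 28 UMIs in all plates together, Cox7b2 had 4, Cox4i2 and Cox8c had 3 each, Ndufa4l2 had 2 and Cox6a2 had 1.

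**Figure D2:**
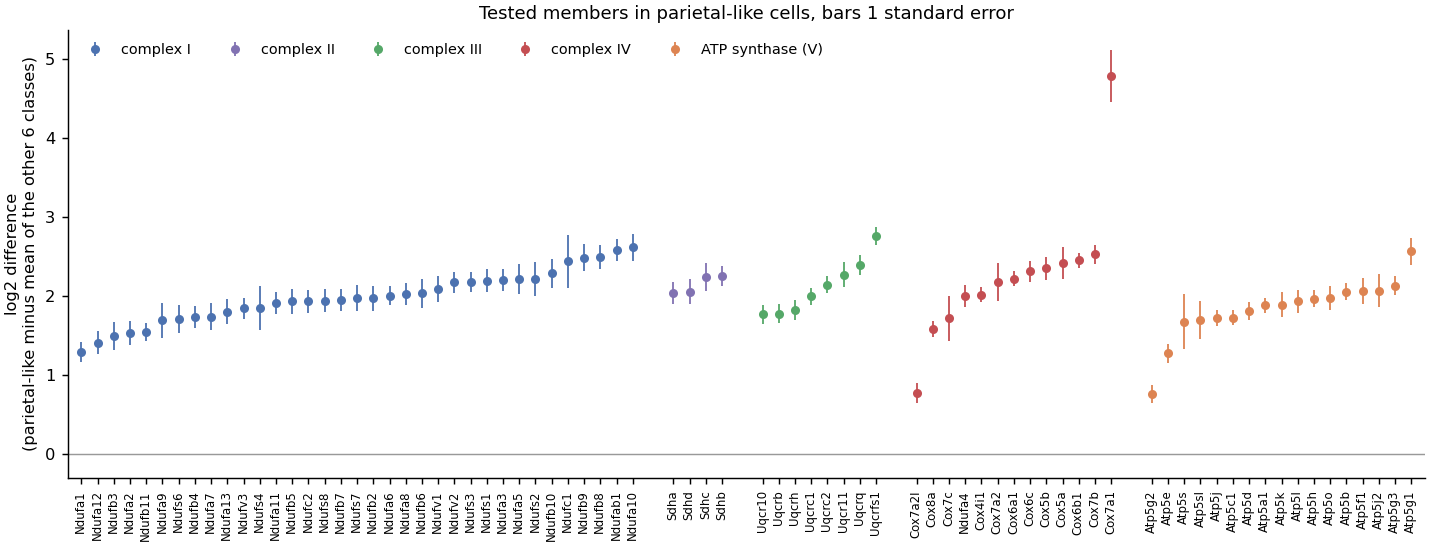
Log2 difference between parietal-like cells and the mean of the other 6 classes (y axis) for the 77 tested members, ordered by complex; bars are 1 standard error from limma. The points lie between 0.76 (Atp5g2) and 4.78 (Cox7a1), all above 0.

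In complex I, the NADH dehydrogenase, the differences of the 35 members ran from 1.29 to 2.62 (median 1.97). Ndufa10, an accessory subunit, was highest by this measure, with 436 and 344 CPM in the corpus plates and 433 and 418 CPM in the pylorus plates of parietal-like cells. The mean of the other classes was 71.97 CPM (log2 difference 2.62, SE 0.17, adjusted p = 6.00e-16). Ndufab1, the mitochondrial acyl carrier protein, followed with 717 ± 153 CPM (SD, n = 4 plates) against 129 (2.58, SE 0.14). The 3 members of the complex with the most UMIs were the accessory subunits Ndufa12 and Ndufb6 and the core iron-sulfur subunit Ndufv2. They differed by 1.41 (SE 0.15), 2.03 (SE 0.18) and 2.17 (SE 0.13). The smallest difference was that of Ndufa1, a subunit of the membrane arm, at 288 ± 47.1 against 170 CPM (1.29, SE 0.12, adjusted p = 2.92e-11).

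Complex II, succinate dehydrogenase, had the narrowest range, with 4 members between 2.04 and 2.25. It also has the fewest members, and a range widens with their number. Sdhb, its iron-sulfur subunit, had 626 and 557 CPM in the corpus plates and 648 and 800 CPM in the pylorus plates, against 145 CPM in the other classes (2.25, SE 0.13). Sdha, the flavoprotein, differed by 2.04 (SE 0.14), and the membrane anchor Sdhc by 2.24 (SE 0.17).

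In complex III, the cytochrome bc1 complex, 8 members differed by 1.77 to 2.76 (median 2.07). Uqcrfs1, the Rieske iron-sulfur protein, had 1411 and 1275 CPM in the corpus plates and 1867 and 1744 CPM in the pylorus plates. The other classes averaged 244 CPM (2.76, SE 0.11, adjusted p = 2.75e-22). The small subunits with the most UMIs, Uqcrb, Uqcrh and Uqcrq, differed by 1.77 (SE 0.12), 1.82 (SE 0.13) and 2.39 (SE 0.12).

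In complex IV, cytochrome c oxidase, 12 members differed by 0.77 to 2.53 (median 2.20), and Cox7a1 stood outside them. Cox7a1, known as the heart and muscle isoform of subunit VIIa, had 125 and 167 CPM in the corpus plates and 105 and 102 CPM in the pylorus plates. Its plates in the other classes held 0 to 12.1 CPM, with a mean of 2.55 (log2 difference 4.78). Because it passed the filter only through the cells in which it is high, this difference is a description, with no test. Cox7a2, the isoform known as the widely expressed one, had more CPM than Cox7a1 in these cells as well, at 619 and 563 in corpus and 653 and 633 in pylorus, against 141 in the other classes (2.18, SE 0.24). Cox7a2l, the relative known for joining complexes into supercomplexes, differed least, at 469 ± 121 against 256 CPM (0.77, SE 0.12).

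The abundant subunits of complex IV lay between these. Cox6a1 was the most abundant at 2865 ± 472 CPM (n = 4) against 597 (2.22, SE 0.09), with each parietal-like plate at or above 2435 CPM. Cox6c, at 1954 ± 290 against 364 CPM, differed by 2.31 (SE 0.13), and Cox8a, at 1393 ± 72.6 against 496 CPM, by 1.58 (SE 0.10). Among the remaining members with isoforms, Cox7b differed by 2.52 (SE 0.12), Cox6b1 by 2.45 (SE 0.10), Cox4i1 by 2.02 (SE 0.09) and Ndufa4 by 2.00 (SE 0.14). Their counterparts Cox6a2, Cox6b2, Cox7b2, Cox4i2, Cox8c and Ndufa4l2 are the members below the filter.

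In ATP synthase 17 members differed by 0.76 to 2.56 (median 1.89). Atp5b, the catalytic beta subunit, stood at 2562 ± 458 against 711 CPM (2.05, SE 0.11), and Atp5a1, the alpha subunit, at 1946 ± 412 against 592 CPM (1.88, SE 0.09). The 3 genes of the c-ring, whose mature proteins are known to be identical, differed unequally. Atp5g1 had 903 and 914 CPM in the corpus plates and 1626 and 1355 CPM in the pylorus plates, against 232 CPM in the other classes (2.56, SE 0.17). Atp5g3 had 1967 and 1826, then 3787 and 3032 CPM, against 627 (2.13, SE 0.12). Atp5g2 had 375 and 365, then 396 and 487 CPM, against 269 (0.76, SE 0.12, adjusted p = 1.27e-06). Atp5g3 and Atp5g1 were thus the abundant c-ring transcripts of parietal-like cells, and Atp5g2 was the least abundant of the 3 there. How genes with near-identical copies were counted is not given in the sources used here.

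**Figure D3:**
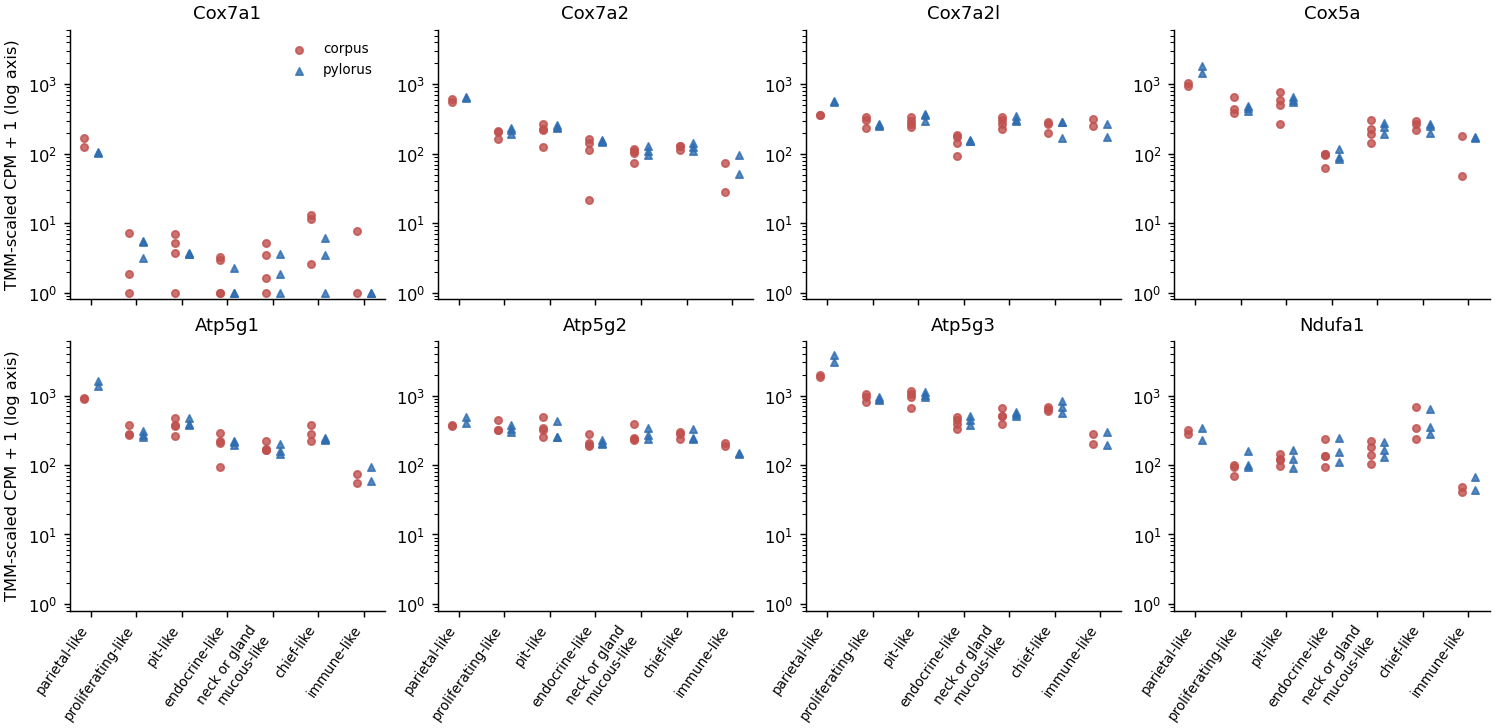
CPM + 1 (log axis) of 8 members by class, 1 point per plate (circles corpus, triangles pylorus). Cox7a1 lies at 102 CPM or more in parietal-like plates and at 12.1 CPM or less elsewhere, Cox5a is low in endocrine-like cells, and Ndufa1 is high in chief-like cells.

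The chrM-encoded subunits were higher in parietal-like cells to a like degree. The 13 protein-coding chrM features took 26.1% and 28.4% of parietal-like UMIs in the corpus plates and 23.4% and 20.4% in the pylorus plates, which was 2.08 to 4.87 times the share of another class in the same plate. In the fit 13 of 13 were higher, with a median difference of 2.02. The balance of both genomes differed between classes. Parietal-like cells held 7.69 and 8.78 chrM protein-coding UMIs per member UMI in the corpus plates and 4.36 and 4.01 in the pylorus plates. Neck or gland mucous-like cells had a mean of 7.99 ± 0.99 (n = 7) and proliferating-like cells of 4.63 ± 0.36 (n = 6). UMI values in the tables end at 4095, and 51 of 56 and 26 of 42 parietal-like cells of corpus replicates 3 and 4 had a chrM value over 2000, as had 7 of 12 and 8 of 20 in pylorus replicates 2 and 3. The highest chrM values were 4028 and 3879, then 3812 and 4015, near that ceiling, whereas the highest value of a member was 295. The part of the ceiling in the chrM values was not tested.

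Genes that feed the chain moved with it in parietal-like cells. Of the TCA cycle and pyruvate dehydrogenase 18 of 18 tested genes were higher (median 2.00), with Idh3a, a subunit of the NAD-dependent isocitrate dehydrogenase, at 346 ± 121 against 65.2 CPM (2.52, SE 0.27). Of the electron carriers, other subunits and transporters 15 of 15 were higher (median 2.00). Slc25a4, an ADP/ATP carrier, stood at 510 ± 76.6 against 74.0 CPM (3.23, SE 0.22) and Cycs, cytochrome c, at 1688 ± 587 against 280 CPM (2.62, SE 0.18). Of fatty acid oxidation 12 of 13 were higher (median 1.76), led by Acadvl at 2.54 (SE 0.38). The other lists had smaller medians. Among assembly factors 22 of 35 were higher and 0 lower (median 0.97), with the copper chaperone Cox17 at 2.26 (SE 0.14), and of the mitochondrial ribosome 57 of 76 were higher and 0 lower (median 0.95). Of glycolysis 10 of 15 were higher (median 1.22), led by Ldhb at 943 ± 30.7 against 30.0 CPM (5.12, SE 0.32). Of the cytosolic ribosome 3 of 83 were higher and 38 lower (median -0.26), and of the dissociation stress genes 0 of 12 were higher and 8 lower (median -1.11), such as Fos at 66.0 ± 42.2 against 549 CPM.

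Among the regulators of mitochondrial genes, 6 of 14 were higher in parietal-like cells and 2 lower (median 0.52). Esrrg, an estrogen-related receptor, stood at 987 ± 161 CPM (SD, n = 4) against 28.2 (log2 difference 5.21, SE 0.34, adjusted p = 7.80e-16), and its relative Esrra at 52.0 against 14.0 CPM (2.09, SE 0.28). The coactivators Ppargc1a and Ppargc1b stood at 135 ± 64.9 against 8.34 CPM (3.82, SE 0.42) and at 149 ± 14.9 against 19.8 CPM (2.96, SE 0.30). Tfb2m and Tfam, factors of chrM transcription, differed by 0.999 (SE 0.30) and 0.70 (SE 0.24). The coactivator Pprc1 was lower by -1.20 (SE 0.35) and Yy1 by -0.56 (SE 0.21). Gabpa, Gabpb1, Myc, Nrf1, Polg and Polrmt did not pass, with differences of -0.13, -0.53, -0.997, -0.72, 0.34 and 0.74.

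The other classes differed less from the mean of the rest, and their counts depended on the scaling. Some splits below are followed by that with sums scaled to total UMIs without TMM (trimmed mean of M values). Where none follows, the split is not thereby free of the scaling. Pit-like cells had 39 of 77 members higher and 4 lower (median 0.29; without TMM 22 and 6), where 22.1% of all genes were higher and 19.2% lower. Proliferating-like cells had 14 higher and 5 lower (0.11; without TMM 39 and 1). With TMM, their share of higher calls was near the 22.0% of all genes, and that of lower calls was below the 18.2% of all genes. Chief-like cells had 8 higher and 6 lower (-0.03; without TMM 2 and 70), where 16.5% and 13.1% of all genes passed. Neck or gland mucous-like cells had 0 higher and 50 lower (-0.35; 14.9% and 12.2%), endocrine-like cells 0 higher and 65 lower (-0.65; without TMM 9 and 32; all genes 24.7% and 32.3%), and immune-like cells 0 higher and 74 lower (-1.44; 17.3% and 42.9%, with a median of -0.44 over all genes). Because parietal-like cells raise the mean they were set against, the same comparison was also made without them, over 76 members. Pit-like cells then had 69 members higher and 1 lower (median 0.66; all genes 24.6% and 19.6%) and proliferating-like cells 55 higher and 1 lower (0.46; 23.6% and 18.0%). Neck or gland mucous-like cells had 6 higher and 4 lower (-0.02; without TMM 6 and 2; all genes 15.8% and 11.9%), and immune-like cells 0 higher and 72 lower (-1.15; 16.3% and 42.3%). Chief-like cells had 40 higher and 0 lower (0.33; 19.0% and 15%), but 3 higher and 56 lower without TMM, where the median over all genes was -0.64. Endocrine-like cells had 4 higher and 43 lower (-0.38; 24.5% and 32.4%), but 23 higher and 12 lower without TMM.

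Single members departed from their class. In chief-like cells Ndufa1 had 678, 237 and 345 CPM in corpus replicates 2, 3 and 4, then 646, 352 and 281 CPM in the pylorus plates. The mean of the other classes was 147 CPM (log2 difference 1.503, SE 0.10, adjusted p = 3.66e-15), and Ndufa1 was highest in chief-like cells in 5 of 6 plates. The values were high in corpus replicate 2 and pylorus replicate 1, whose chief-like cells lay in another cluster (55 of 56 and 35 of 37 cells) than nearly all those of the other plates, and the plates of both regions overlap. Uqcrq, a small subunit of complex III, was the other such member, at 617 ± 109 (n = 6) against 388 CPM (1.23, SE 0.10). Without parietal-like cells in the comparison, both were highest in chief-like cells in 6 of 6 plates. Ndufs4, an accessory subunit of complex I, was lower there, at 45.5 ± 9.1 against 93.4 CPM (-0.74, SE 0.23, adjusted p = 0.0127).

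Cox5a, a nuclear subunit of complex IV, separated pit-like from endocrine-like cells. In pit-like cells it had 770, 268, 498 and 602 CPM in the corpus plates, by replicate number, then 661, 600 and 551 CPM in the pylorus plates, against 414 in the mean of the others (1.03, SE 0.16). In endocrine-like cells it had 61.9, 98.2, 98.6 and 94.3 CPM, then 84.3, 115 and 88.8 CPM, against 493 (-1.96, SE 0.16, adjusted p = 7.18e-14). Each endocrine-like plate was below each pit-like plate. Ndufa3, of complex I, was also low in endocrine-like cells, at 51.0 ± 13.7 against 176 CPM (-1.44, SE 0.11), and was lowest there in 7 of 7 plates. Sdhd, the second membrane anchor of complex II, was higher in pit-like cells at 212 ± 42.3 against 145 CPM (0.95, SE 0.13) and in proliferating-like cells at 195 ± 41.7 against 148 CPM (0.79, SE 0.13). Ndufa1 was lower in proliferating-like cells, at 102 ± 29.7 against 201 CPM (-0.66, SE 0.10). In neck or gland mucous-like cells the lowest was Ndufb7 at 48.1 ± 6.09 against 109 CPM (-0.85, SE 0.11), and in immune-like cells Ndufb9 at 27.5 ± 18.1 against 219 CPM (-2.62, SE 0.17). The means of the others given for single members of these classes and of chief-like cells include parietal-like cells, which raise them.

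The protein-coding chrM features did not follow the members in each class. The counts of these features are with TMM. Proliferating-like cells had 0 of 13 higher and 9 lower (median -0.29), and chief-like cells had 8 higher and 0 lower (0.24). By share of UMIs, without TMM, these features took 7.32% ± 0.95 (SD, n = 6 plates) in chief-like cells. In proliferating-like cells they took 9.44% ± 1.11 (n = 6), so the order of these classes depended on the scaling. Neck or gland mucous-like cells had 2 higher and 1 lower (0.11), and 13 of 13 higher (0.45) once parietal-like cells were left out. Endocrine-like cells had 0 higher and 12 lower (-0.80), as their members did.

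Corpus and pylorus were then compared. Over all kept cells of a plate, the member share of UMIs was 2.37%, 1.35%, 1.84% and 1.86% in the corpus plates, by replicate number, against 1.79%, 1.76% and 1.83% in the pylorus plates, so that the pylorus plates lie within the corpus range. In the fit 0 of 77 members passed, where 0.0167% of 12003 genes were higher and 0 lower. The differences (pylorus minus corpus) ran from -0.59 (Cox7c) to 0.20 (Sdhd) with a median of 0.04, and 0 had an unadjusted p under 0.05. Cox7a1 stood at 13.5 ± 12.8 CPM in corpus and 6.14 ± 4.16 in pylorus plates. In sums over all cells, a different number of parietal cells and a different level per cell cannot be told apart. Within classes 0 members passed in 6 of 7. These were chief-like (75 tested, median -0.06), endocrine-like (75, 0.08), immune-like (48, -0.06), pit-like (75, 0.11), proliferating-like (75, 0.06) and neck or gland mucous-like cells (76, 0.08). At an unadjusted p under 0.05 there was 1 member each in chief-like and pit-like cells and 0 in the others. Of all genes 0 passed in these classes except the last, where 0.0240% were higher and 0.0120% lower.

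In parietal-like cells members were higher in pylorus than in corpus plates. Of 77 tested members 15 rose and 0 fell (limma, adjusted p under 0.05), where 3.25% of 6860 genes rose and 3.88% fell. The median difference was 0.32 on the log2 scale against -0.02 for all genes, 66 members had a positive difference, and 36 had an unadjusted p under 0.05. In 44 members both pylorus plates lay above both corpus plates, as they did for 25.7% of all genes, 3 members were the other way round and 30 overlapped. With 2 plates per region, the spread rests mostly on other genes: 14.5 pooled degrees of freedom stood beside 2 of the gene's own. The count depended on single plates and on the scaling. It was 4 without corpus replicate 3, 1 without corpus replicate 4, 19 without pylorus replicate 2 (18 of them higher and 1 lower) and 33 without pylorus replicate 3. It was 52 without TMM, which moved the median of all genes to 0.27, and 23 with voom weights. In cells thinned to 1000 UMIs each it was 0, and the median difference of the members tested there was -0.02, against -0.16 for all genes. The member share of UMIs in the thinned cells was 3.30% and 3.31% in the corpus plates and 5.20% and 5.28% in the pylorus plates, close to the shares without thinning.

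By complex, 6 members rose in complex I (median 0.33), 1 in complex II (0.31), 1 in complex III (0.26), 2 in complex IV (0.16) and 5 in ATP synthase (0.42). CPM in this fit have their own scaling and are not to be set beside those of the classes. Atp5g3, of the c-ring, had 1485 and 1412 CPM in the corpus plates and 2954 and 2281 CPM in the pylorus plates (0.84, SE 0.16, adjusted p = 0.00342). Sdhd had 249 and 188, then 366 and 387 CPM (0.80, SE 0.16, adjusted p = 0.00786). Both have the estrogen-related receptor motif in their promoter windows, at 37 bases after the start in Sdhd, and its part was not tested. Atp5g1 had 682 and 706, then 1268 and 1019 CPM (0.71, SE 0.15), and Atp5f1, of the peripheral stalk, had 332 and 255, then 511 and 445 CPM (0.71, SE 0.16). Cox5a had 793 and 720, then 1416 and 1078 CPM (0.71, SE 0.16), and Cox7a2l had 275 and 282, then 440 and 439 CPM (0.65, SE 0.15). In each of these 6 both pylorus plates were above both corpus plates, with pylorus replicate 2 the higher one except for Sdhd. The other 9 that passed were Ndufb10, Ndufs4, Ndufb6, Uqcrc2, Atp5o, Ndufv2, Ndufc2, Atp5a1 and Ndufa11, at 0.52 to 0.65.

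Members at the other end did not pass. Cox7a1, the muscle isoform, had 94.3 and 129 CPM in the corpus plates and 81.8 and 77.0 CPM in the pylorus plates (-0.47, SE 0.20, adjusted p = 0.184). Ndufa7 and Ndufa2, of complex I, differed by -0.36 and -0.26, with both pylorus plates below both corpus plates. Atp5g2 had 283 and 282, then 309 and 366 CPM (0.25, SE 0.15, adjusted p = 0.369). Per cell, the member share of UMIs had a median of 3.22% and 3.13% in corpus replicates 3 and 4 (cells from 1.90% to 5.72%) and 5.27% and 5.18% in pylorus replicates 2 and 3 (2.04% to 7.63%), so that single cells of both regions overlap.

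**Figure D4:**
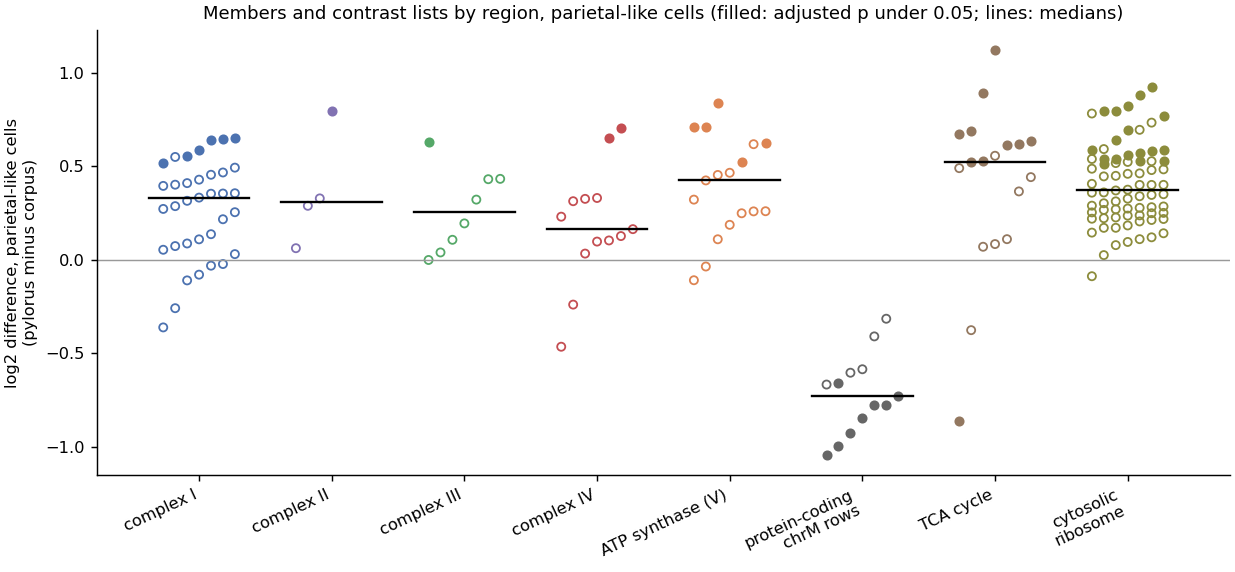
Log2 difference (pylorus minus corpus) in parietal-like cells for members by complex and for 3 contrast lists, 1 point per gene; filled points passed at an adjusted p under 0.05 and black lines are medians. Medians are 0.16 to 0.42 for the complexes, -0.73 for the protein-coding chrM features, 0.53 for the TCA cycle list and 0.37 for the cytosolic ribosome.

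The chrM features went the other way in these cells. Of 13 protein-coding ones, 8 fell in pylorus and 0 rose (median -0.73), for example mtNd4, a complex I subunit, with 42274 and 46970 CPM in the corpus plates and 25302 and 21752 CPM in the pylorus plates. Of the pylorus cells 4 of 32 had under 5% of UMIs from protein-coding chrM features, and of the corpus cells 0 of 98. Without such cells 16 members passed. As a share of nuclear UMIs, members took 5.52% and 5.32% in the corpus plates and 7.78% and 7.01% in the pylorus plates, so the difference was also present with chrM left out of the total, where 15 members passed. Markers of other cell types were present in these sums, and their source was not measured: chief markers summed to 46240 to 55268 CPM in corpus and 43526 to 52857 in pylorus plates, and pit markers to 14958 to 23499 and 14515 to 18526. The parietal markers summed to 17551 to 19104 and 20528 to 20617 CPM, and both pylorus plates were above both corpus plates for 6 of the 11, below them for 2 and overlapping for 3. Kcne2, a potassium channel subunit, had 275 and 280, then 557 and 436 CPM, whereas Aqp4, a water channel, had 461 and 389, then 170 and 55.7 CPM. Proliferating markers summed to 138 to 141 CPM in corpus and 161 to 242 in pylorus plates, and neck or gland mucous markers to 865 to 997 and 880 to 905. Endocrine markers summed to 1096 to 1695 and 1782 to 1787 CPM, immune markers to 129 to 142 and 78.3 to 99.7, endothelial markers to 47.8 to 51.8 and 37.5 to 52.2, tuft markers to 23.2 to 41.2 and 8.70 to 34.9, stromal and pancreatic acinar markers to at most 2.23, and squamous and red blood cell markers were at 0. Their part in the result was not tested.

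Other lists were unequal in this comparison, read against the 3.25% of all genes that rose. Of the TCA cycle list 9 of 18 rose and 1 fell (median 0.53): Idh3a rose from 185 ± 21.7 to 345 ± 10.1 CPM (0.90, SE 0.16) and Idh2 fell from 167 ± 14.1 to 92.2 ± 20.5 CPM (-0.86, SE 0.19). Of the electron carriers 4 of 15 rose, among them Cycs from 902 ± 4.96 to 1682 ± 24.9 CPM (0.90, SE 0.14) and the ADP/ATP carrier Slc25a5 from 1821 ± 190 to 3104 ± 93.8 CPM (0.77, SE 0.15). Of the cytosolic ribosome 18 of 76 rose and 0 fell (median 0.37), led by Rpl12 at 0.93 (SE 0.15), and of the mitochondrial ribosome 7 of 75 rose and 0 fell (0.47). Of glycolysis 4 of 14 rose, led by Ldha from 64.7 ± 5.32 to 183 ± 49.8 CPM (1.44, SE 0.20), and of fatty acid oxidation 0 of 13 passed. Among the assembly factors 2 of 34 rose, Cox10 (0.83, SE 0.20) and Ndufaf4 (0.64, SE 0.18), and among the stress genes 1 of 12, Hspa1b (0.66, SE 0.18). Of the regulators 0 of 11 rose and 2 fell. Ppargc1a fell from 146 ± 1.48 to 60.2 ± 7.41 CPM (-1.25, SE 0.19, adjusted p = 0.000789). The other, Esrrb, went from 16.7 ± 2.84 to 2.20 ± 3.11 CPM (-2.38). Esrrb passed the filter on low counts only through the corpus plates, where its values are high. Its fall is therefore a description, with no test, although it is in the count of 2. Esrrg stood at 655 ± 5.29 and 857 ± 98.6 CPM and did not pass (0.38, SE 0.14, adjusted p = 0.127).

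Whether the region difference of the members was larger in parietal-like cells than in other classes was tested as an interaction in the same 4 plates. Of 77 members 0 passed, with 10 at an unadjusted p under 0.05, where 0.178% of 11216 genes were higher and 0.669% lower. The median interaction of the members was 0.26, against -0.14 for all genes, and 61 were positive. The lowest adjusted p was 0.0537 (Atp5g3, 0.66, SE 0.17). The count depended on the scaling: it was 8 without TMM, 11 with voom weights and 2 with chrM left out of totals. Whether the region difference is particular to parietal-like cells is thus not settled by this test. The 15 members that passed between regions in parietal-like cells were picked by their values there. All 15 were tested in each of 5 other classes and 11 in immune-like cells, and 0 passed. This does not set members apart, because almost no gene of any kind passed in those classes. Positive differences numbered 13 (pit-like), 12 (endocrine-like), 12 (neck or gland mucous-like), 8 (chief-like), 7 (proliferating-like) and 5 of 11 (immune-like). Of the protein-coding chrM features 5 of 13 were lower in the interaction test (median -0.47).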

How the data were processed

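UMI counts per gene and well were deposited by the authors as whole numbers, with mm9 as the genome build named in the submitters' processing notes; which aligner and counter made them is not given in the sources used here. Count models were not used, because the unit check could not read the tables' columns as counts, and limma took the place of the count test first planned. The members and all gene lists were chosen with earlier results of these data known, and they are described by counts and medians, with p-values adjusted over all genes tested.

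Wells with at least 1000 UMIs without spike-ins were clustered in scanpy 1.11.5 (2000 variable genes, 30 components, 15 neighbours, Leiden resolution 1.0 in igraph 0.11.9). A cluster was named for the class whose markers (3 or more, each in over 25% of cells) had the highest mean log2 fold, 0.5 or more. Cells were sorted singly, doublets were not called, and wells that held more than 1 cell were not looked for. Counts were summed per class and plate with at least 10 cells, scaled by TMM (log ratios trimmed by 30%, abundances by 5%) and fitted in limma 3.58.1 (R 4.3.3) as log2(CPM + 2) with a mean trend. Genes needed about 10 counts at the median depth in enough sums and 15 in all. Fold changes on this scale understate the change of low genes. The fits were tested on simulated counts.

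Named members were the 3 with the most UMIs per complex, members with isoforms, up to 6 per direction that passed between regions, and up to 5 per direction in each class with at least 32 CPM, of which some are printed. Of other lists, up to 4 that passed and all regulators were named. The further 9 members that passed between regions are listed to complete their count. Aqp4, Kcne2 and mtNd4 were chosen after their values were seen.

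The replicate numbers were not taken as pairs (deviations of same-numbered plates correlated at 0.452, -0.106 and 0.469). Alternatives were another pseudocount, no filter, no TMM, totals without chrM, voom weights, other limits on cells, thinned cells, other clusterings, and leaving out plates. Added after seeing the data were the comparison of neighbouring classes within plates, the comparison without parietal-like cells, the interaction, and leaving out cells with little chrM mRNA.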

Additional observations from a re-analysis of the deposited data

Results flagged for a closer look

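Over all kept cells, corpus replicate 2 had 9.28% of its UMIs from protein-coding chrM features, apart from the other 3 corpus plates at 12.3% to 12.9%. Its member share, 1.35%, was also the lowest of the 7 plates. It held 4 parietal-like cells and entered no parietal-like comparison. In all, 8 checks for a plate that stands apart were made, and chance gives about 1 in 20. They covered the member share and the protein-coding chrM share in groups of 4 corpus plates. These groups were all cells, endocrine-like, pit-like and neck or gland mucous-like cells. Pylorus plates and the other classes had fewer plates per group and were not examined.

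For 5 of the 13 protein-coding chrM features the difference between regions in parietal-like cells differed from that in the other classes by the interaction test (limma, adjusted p under 0.05), all of them lower in pylorus. The same test gave 0 of 77 members, but 8 without TMM, 11 with voom weights and 2 with chrM left out of totals.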

How the results depend on the processing

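Under the alternatives run for it, the count of members in parietal-like cells against the other classes stayed at 77 higher and 0 lower, leaving out any plate included, except for 76 higher without the plate block and 57 in cells thinned to 1000 UMIs. Without TMM, other counts against the other classes moved: chief-like 2 higher and 70 lower, endocrine-like 9 and 32, neck or gland mucous-like 1 higher, pit-like 22 higher, proliferating-like 39 higher and 1 lower. With parietal-like cells left out as well, that scaling gave chief-like 3 and 56, endocrine-like 23 and 12, and 2 lower in neck or gland mucous-like and 3 in pit-like cells. Members higher in pylorus in parietal-like cells numbered 52 without TMM (median 0.64, all genes 0.27), 23 with voom weights and 0 in cells thinned to 1000 UMIs, where fewer genes were tested. The interaction gave 8 without TMM, 2 with chrM left out of totals and 11 with voom.
Thinning gave 5 higher and 2 lower in chief-like cells, 16 lower in endocrine-like, 37 in immune-like, 3 in neck or gland mucous-like, and 3 higher and 0 lower in pit-like and 0 higher in proliferating-like cells. Small counts also moved. Members higher in endocrine-like cells were 1 without the filter, 2 with voom, 2 at a minimum of 3000 UMIs and 1 with the 4 plates alone that hold parietal-like sums. In immune-like cells 1 was higher without the filter, and in neck or gland mucous-like cells 1 with voom, 1 at resolution 1.5 and 2 at a minimum of 20 cells. Members lower in proliferating-like cells were 3 without the filter, 9 with voom, 3 without the plate block, 3 without cells of little chrM mRNA and 8 in those 4 plates. Members lower in chief-like cells were 19 at resolution 1.5 and 11 in those 4 plates, where 1 member passed between regions over all cells.
As a share of nuclear UMIs, members took 1.17% in chief-like, 1.65% in endocrine-like, 0.975% in immune-like, 1.64% in neck or gland mucous-like and 6.41% in parietal-like cells. Signs turned in thinned cells for Sdhd (0.0646) and Ndufb9 (-0.054; -0.0422 without TMM) in chief-like, Ndufc2 (0.158) in neck or gland mucous-like, and between regions for Atp5a1 (-0.0362), Cox5a (-0.0754), Ndufb10 (-0.238) and Ndufv2 (-0.154). Where no cause follows from the alternative itself, the cause was not tested.
With the replicate block, 0 members passed between regions over all cells and in the 5 classes that could take it. No paired analysis was possible for parietal-like and immune-like cells because their plates share 1 replicate number.
Leaving out 1 plate gave 8 to 11 higher and 5 to 9 lower in chief-like, 0 to 2 and 59 to 64 in endocrine-like, 0 and 74 to 76 in immune-like, 0 and 41 to 56 in neck or gland mucous-like, 34 to 42 and 3 to 5 in pit-like, and 11 to 18 and 1 to 6 in proliferating-like cells. Between regions it gave 1 to 33 in parietal-like cells, 0 to 1 in immune-like cells (1 without corpus replicate 3) and 0 elsewhere. Depth limits the immune-like sums most, in which 1767 genes could be tested between regions.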

Other observations

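The 3 plates with fewer than 10 parietal-like cells entered no fit. The 3 such cells of corpus replicate 1 had a median member share of 3.86% of UMIs, the 4 of corpus replicate 2 had 5.12% and the 2 of pylorus replicate 1 had 8.97%. As shares of nuclear UMIs the medians were 8.73%, 5.25% and 10.6%, so that corpus replicate 1 was above pylorus replicates 2 and 3 (7.63% and 6.98%) and not below them. The 4 cells of corpus replicate 2 held 1797 to 3420 UMIs, and protein-coding chrM features took at most 2.80% of them. In pylorus replicates 2 and 3, parietal-like cells with under 5% of UMIs from these features held members at a median of 6.77% of nuclear UMIs, against 7.28% in the other parietal-like cells of these plates. Corpus replicates 3 and 4 had a median of 5.06%.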
